A study of Bos taurus with 5 samples.

Results

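The genes described are ATF4, the transcription factor of the amino acid response, and 9 genes of that response, 10 of the 27607 genes in the table. They are ASNS (asparagine synthesis), PHGDH, PSAT1 and PSPH (serine synthesis), SHMT2 and MTHFD2 (mitochondrial one-carbon metabolism), DDIT3 and TRIB3 (stress factors) and SLC3A2 (an amino acid transporter subunit). Members were matched by symbol and each had 1 entry. They were chosen by values already seen in these libraries, mainly low values in the skin-labelled library, so the differences below describe the choice as well as the cells and carry no test. The 5 RNA sequencing libraries are from cattle (Bos taurus), labelled skin, brain, lung, heart and limb, with 1 library per label. Apart from species and tissue, no breed, age, sex, genotype or treatment is given in the sources used here. The protocol names a microfluidic chip for cells, while the number of cells or animals behind a library is not given in those sources. With 1 library per label there is no replicate error.

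As background, known mostly from human and mouse cells, a shortage of amino acids or protein misfolding in the endoplasmic reticulum activates kinases that phosphorylate the translation factor eIF2. General translation then slows while the mRNA of ATF4 is translated more, and ATF4 protein switches on genes for making, importing and charging amino acids. Prolonged signalling also raises DDIT3 and TRIB3, which are linked to growth arrest and cell death. ATF4 is regulated largely at translation, so its mRNA level is not a measure of its protein.

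Levels are in FPKM, the unit the deposited values were taken to have, which divides read fragments by transcript length and by the mapped total, so that genes of different length can be compared. The skin-labelled library had 4868 genes at 1 FPKM or more, against 5075 to 6394 in the other 4. Most defining markers of the labelled tissues were listed at 0. The skin-labelled library had 1 of 7 keratinocyte entries above 0 (KRT10, at 20.8 FPKM, also above 0 in the other 4), the brain-labelled library 0 of 8 neuronal entries, the lung-labelled library 0 of 8 alveolar entries, the heart-labelled library 1 of 8 cardiomyocyte entries (ACTC1, 5.21 FPKM) and the limb-labelled library 1 of 8 skeletal muscle entries (ACTA1, 37.6 FPKM). Some markers stood higher under another label, such as ACTC1 at 57.7 FPKM under the brain label and 231 FPKM under the limb label, SFTPC at 34.2 FPKM under the limb label and KRT5 at 51.0 FPKM under the lung label. Each library is therefore named by its label only. Endothelial and macrophage lists had 0 of 8 entries above 0 in any library, and fibroblast genes had 5 of 8 under the skin label and 4 or 5 of 8 in the other libraries. The number of cells behind a library is not given, so fewer cells of a type, less RNA per cell and transcripts missed by a library cannot be told apart.

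Serine is made from the glycolytic intermediate 3-phosphoglycerate in 3 steps, and the genes of these steps did not share 1 pattern. PHGDH, the dehydrogenase of the opening step, stood at 140 FPKM in the skin-labelled library, against 75.8 FPKM under the brain label, 265 FPKM under the lung label, 153 FPKM under the heart label and 199 FPKM under the limb label. The skin-labelled value lay inside the range of the other 4, with the brain-labelled library lowest and the lung-labelled library highest. PSAT1, the aminotransferase of the middle step, was listed at 0 in the skin-labelled library, against 226 FPKM under the brain label, 74.2 FPKM under the lung label, 198 FPKM under the heart label and 181 FPKM under the limb label. PSPH, the phosphatase that releases serine, stood at 7.38 FPKM in the skin-labelled library, against 480 FPKM under the brain label, 268 FPKM under the lung label, 484 FPKM under the heart label and 312 FPKM under the limb label. PSPH was thus 36.3-fold to 65.6-fold lower in the skin-labelled library than in each of the others, and both later steps had their next lowest value under the lung label.

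Asparagine synthetase is the enzyme that makes asparagine from aspartate and glutamine, and its gene is a much-used readout of ATF4 activity. ASNS was listed at 0 in the skin-labelled library, against 279 FPKM under the brain label, 145 FPKM under the lung label, 276 FPKM under the heart label and 632 FPKM under the limb label. The order of the 4 nonzero values, limb, brain, heart and lung, was the same as that of ATF4. The ASNS values under the brain and heart labels differed by little, and no spread is available to say whether any neighbours in this order differ.

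**Figure D1:**
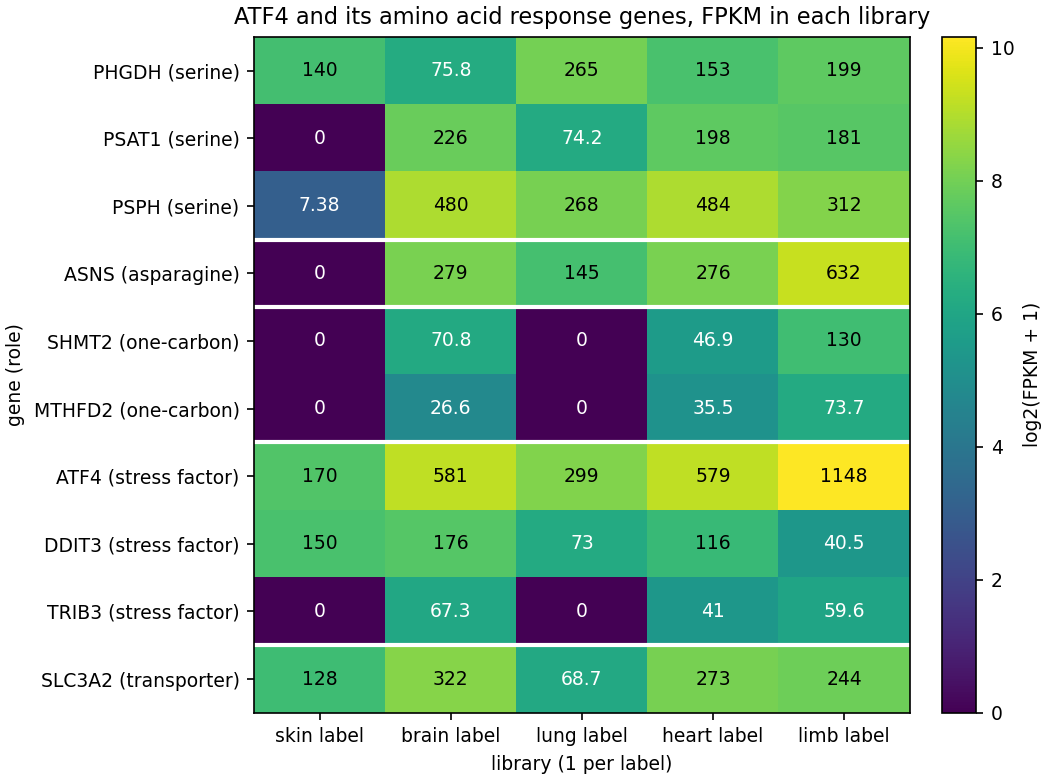
FPKM of the 10 genes (rows, grouped by role) in the 5 libraries (columns), with colour showing log2(FPKM + 1) and the printed number the FPKM. The skin-labelled column has 5 zeros (PSAT1, ASNS, SHMT2, MTHFD2, TRIB3), the lung-labelled column 3, and the other columns none.

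Serine feeds the mitochondrial one-carbon pathway, in which SHMT2 passes a carbon unit from serine to folate and MTHFD2 oxidises the product. SHMT2 was listed at 0 in the skin-labelled library, against 70.8 FPKM under the brain label, 0 under the lung label, 46.9 FPKM under the heart label and 130 FPKM under the limb label. MTHFD2 was listed at 0 in the skin-labelled library, against 26.6 FPKM under the brain label, 0 under the lung label, 35.5 FPKM under the heart label and 73.7 FPKM under the limb label. Both genes were highest under the limb label, and neither separated the skin-labelled from the lung-labelled library.

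The stress factors differed among themselves. ATF4 stood at 170 FPKM in the skin-labelled library, against 581 FPKM under the brain label, 299 FPKM under the lung label, 579 FPKM under the heart label and 1148 FPKM under the limb label. The skin-labelled value was the lowest, 1.76-fold below the lung-labelled and 6.77-fold below the limb-labelled one, yet still above 80.8% of the genes listed above 0 in that library.

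DDIT3 encodes the transcription factor CHOP, and its order over the libraries differed from that of ATF4. DDIT3 stood at 150 FPKM in the skin-labelled library, against 176 FPKM under the brain label, 73.0 FPKM under the lung label, 116 FPKM under the heart label and 40.55 FPKM under the limb label. The skin-labelled value was the second highest, and DDIT3 was the only one of the 10 genes with its lowest value under the limb label.

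TRIB3, a pseudokinase that binds ATF4 and CHOP, was listed at 0 in the skin-labelled library, against 67.3 FPKM under the brain label, 0 under the lung label, 41.0 FPKM under the heart label and 59.6 FPKM under the limb label. Its zeros fell in the same libraries as those of SHMT2 and MTHFD2. The ratio of ATF4 to DDIT3 in FPKM was 1.13 in the skin-labelled library, against 3.30 under the brain label, 4.10 under the lung label, 5.00 under the heart label and 28.3 under the limb label.

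SLC3A2 encodes the heavy chain that holds several amino acid exchangers at the cell surface. SLC3A2 stood at 128 FPKM in the skin-labelled library, against 322.5 FPKM under the brain label, 68.7 FPKM under the lung label, 273 FPKM under the heart label and 244 FPKM under the limb label. The lung-labelled library was lowest and the skin-labelled library next. Its light chain SLC7A5, which carries leucine and other large neutral amino acids, was listed at 0 in the skin- and limb-labelled libraries, at 10.7 FPKM under the brain label, 4.58 FPKM under the lung label and 37.2 FPKM under the heart label. SLC7A6, another light chain, was listed at 0 in the skin-, brain- and heart-labelled libraries, at 30.5 FPKM under the lung label and at 7.32 FPKM under the limb label. Of the remaining light chains on the list, SLC7A8 stayed under 1 FPKM in each library, and SLC7A7, SLC7A10 and the cystine exchanger SLC7A11 were listed at 0 in all 5.

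Summed over PHGDH, PSAT1, PSPH and ASNS, the synthesis genes came to 147 FPKM in the skin-labelled library, against 1061 FPKM under the brain label, 752 FPKM under the lung label, 1112 FPKM under the heart label and 1324 FPKM under the limb label. PHGDH made up 95.0% of that sum in the skin-labelled library, against 7.14% under the brain label, 35.3% under the lung label, 13.8% under the heart label and 14.99% under the limb label. The sum of ATF4, DDIT3 and TRIB3 was 320 FPKM in the skin-labelled library, against 825 FPKM under the brain label, 372 FPKM under the lung label, 736 FPKM under the heart label and 1249 FPKM under the limb label. In the skin-labelled library the stress factors thus summed to more than the synthesis genes, while in the other 4 the synthesis genes summed to more.

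**Figure D2:**
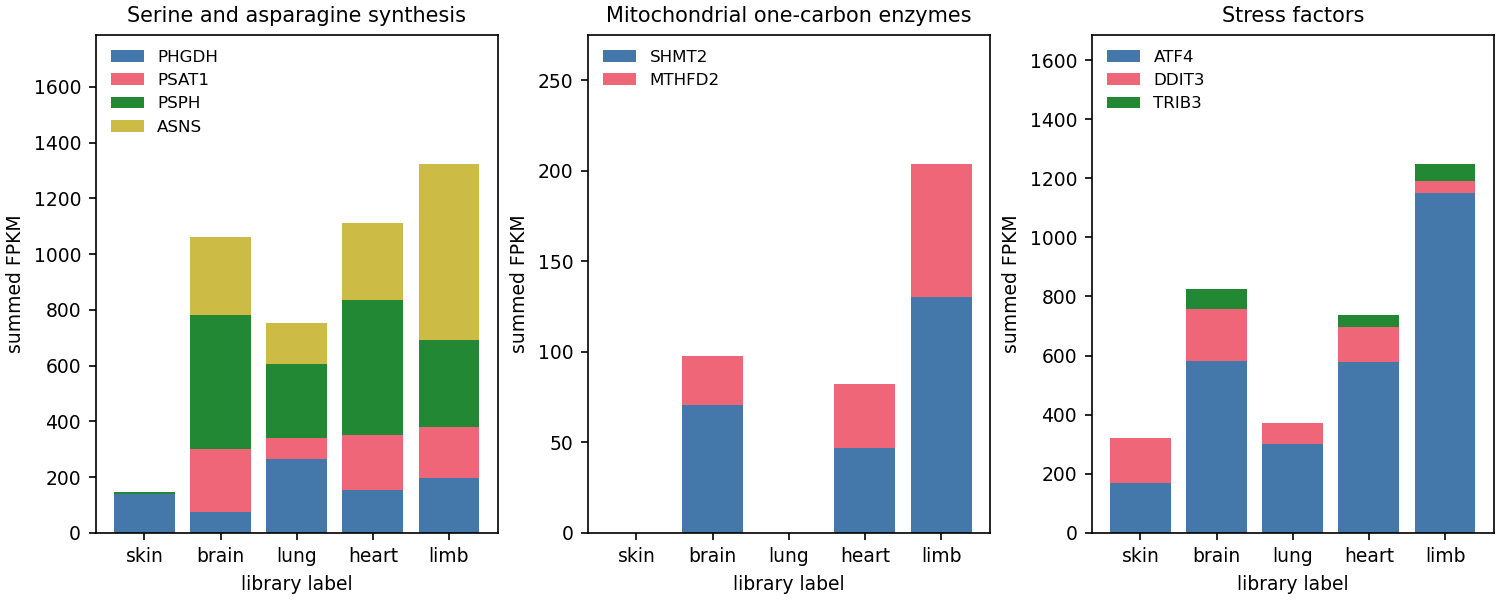
Summed FPKM (vertical axes, linear from 0, a different range in each panel) of the synthesis genes, the mitochondrial one-carbon enzymes and the stress factors in each library, with each gene as a coloured segment. The skin-labelled bar of synthesis genes, 147 FPKM, is nearly all PHGDH, and the one-carbon bars are at 0 under the skin and lung labels.

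The skin-labelled library was next compared with the others by a fixed rule of size. A gene was counted as apart when the higher value was at least 10 FPKM and the ratio was at least 4 after adding 1 to each. Against each of the other 4 at the same time, 3 of the 7 members that could be counted were lower in the skin-labelled library (PSAT1, PSPH and ASNS), beside 12.7% of all 2147 such genes. No member was higher there than in each of the other 4 (0 of 4), beside 8.84% of all 3844 such genes. These shares stand beside the counts as background only, since the members were chosen on this contrast. Without the lung-labelled library among the others, all 10 members could be counted. SHMT2, MTHFD2 and TRIB3 were then also lower and the count was 6. The share of all genes that were lower was not computed for that setting.

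Pair by pair, between 3 and 7 members were lower in the skin-labelled library. In the skin-labelled library, 6 of 10 were lower than under the brain label (PSAT1, PSPH, ASNS, SHMT2, MTHFD2 and TRIB3) and 0 higher, beside 31.2% and 18.3% of all genes counted. The same 6 were lower, and 0 higher, than under the heart label, beside 30.6% and 20.3% of genes. Against the limb-labelled library ATF4 joined them, with 7 of 10 lower and 0 higher, beside 27.4% and 26.2% of genes. Against the lung-labelled library 3 of 7 were lower (PSAT1, PSPH and ASNS) and 0 higher, beside 30.3% and 21.4% of genes. With a minimum of 50 FPKM in place of 10, the count against the heart-labelled library was 3, and the share of all genes was not computed. A member at 0 in the skin-labelled library could be counted only through the other library, and could then only be lower. The shares also cover genes counted only through their skin-labelled value, so they are not a like background for the members. These comparisons share the skin-labelled library and are not independent of each other.

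**Figure D3:**
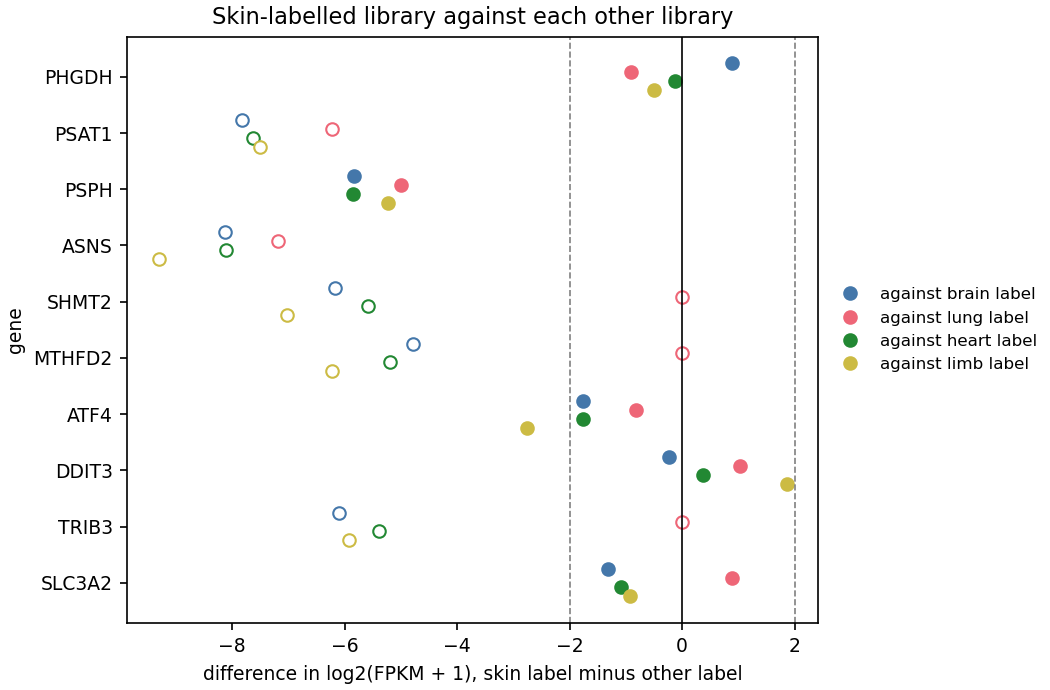
Difference in log2(FPKM + 1), skin-labelled minus each other library (points, coloured by the other label), for the 10 genes, with dashed lines at a ratio of 4 in either direction. Open points are genes listed at 0 in the skin-labelled library, whose position depends on the 1 added, and those at a difference of 0 are at 0 in both libraries. PHGDH, DDIT3 and SLC3A2 lie between the dashed lines against every label, while PSAT1, PSPH and ASNS lie left of them against every label.

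On the log2(FPKM + 1) scale, the skin-labelled value minus the mean of the other 4 was -0.17 for PHGDH, -1.78 for ATF4, 0.76 for DDIT3 and -0.61 for SLC3A2. The difference was -5.48 for PSPH, the only member apart that was not listed at 0. By role, the median difference was -6.39 for the 4 synthesis genes, -4.37 for the one-carbon enzymes and -1.78 for the stress factors, against a median of -0.73 over all 8694 genes averaging 1 FPKM or more. The stress factors were divided, with TRIB3 at -4.35, so their median is the value of ATF4 alone. The synthesis genes were divided as well, with PHGDH apart from the others. The synthesis median lies midway between PSPH and PSAT1, of which only PSAT1 was listed at 0. It was -8.13 with 0.1 added and -4.98 with 5 added. The one-carbon median rests on genes listed at 0 and was -6.84 and -2.71 with these values added. By this mean, 6 of 10 members were lower in the skin-labelled library and 0 higher, beside 17.5% and 27.6% of the 4708 genes that could be counted. Here a gene could be counted when its skin-labelled value, or the mean of the other 4 converted back from the log2 scale, was at least 10 FPKM. The shares thus include genes counted only through the skin-labelled value, which could not be lower. They are not a like background for the members. MTHFD2 was no longer among the lower members without the limb-labelled library, its converted mean then being under 10 FPKM. ATF4 was added, at -2.10, without the lung-labelled library.

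A value of 0 was read against how often these libraries list 0 at all, because depth is unknown and a gene listed at 0 may lie below what a library could show. Among genes whose lowest value in the other 4 libraries was 50 to 100 FPKM, as for PSAT1, the skin-labelled library listed 27 of 375 at 0 (7.20%), the highest share of the 5 libraries in that range. Among genes at 100 to 200 FPKM, as for ASNS, it listed 5 of 294 at 0 (1.70%). Among genes at 200 FPKM or more, as for PSPH and ATF4, it listed 0 of 513 at 0, and 3 of the 513, PSPH among them, were lower by the size rule. For SHMT2, MTHFD2 and TRIB3 the wider question is how many genes share their zeros. There were 2543 genes at 10 FPKM or more in the brain-, heart- and limb-labelled libraries. Of these, 340 (13.4%) were at 0 in the skin-labelled library, 251 (9.87%) under the lung label and 102 (4.01%) in both. The corresponding member counts were 5, 3 and 3 of 10. These 2543 genes were not matched to the members by level, and zeros were rarer at higher levels. The members were chosen mainly for low skin-labelled values, so all shares in this paragraph are background only.

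**Figure D4:**
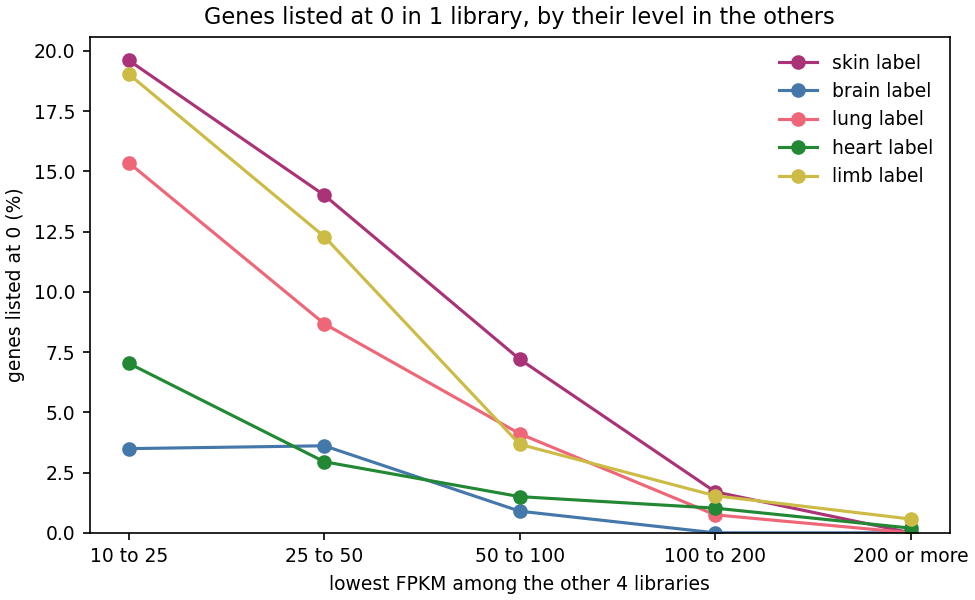
Share of genes listed at 0 in 1 library (vertical axis, percent) by the lowest FPKM of the same gene in the other 4 libraries (horizontal axis), 1 line per library. The share under the skin label is 19.6% at 10 to 25 FPKM, 7.20% at 50 to 100 FPKM and 1.70% at 100 to 200 FPKM.

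The lung-labelled library was compared with the mean of the brain-, heart- and limb-labelled ones. This comparison was chosen after the member values were seen. For PSAT1, PSPH, ASNS and ATF4 the lung-labelled value came between the skin-labelled one and those of the other libraries. By the size rule 4 of 10 members were lower (SHMT2, MTHFD2, TRIB3 and SLC3A2) and 0 higher, beside 14.6% and 30.5% of genes. These shares are background only, and none of the genes that came between was lower by the rule. SLC3A2 lay on the limit, with a difference of -2.002 in log2(FPKM + 1). ATF4, PSAT1 and ASNS were lower by less than the rule, at -1.28, -1.42 and -1.33, and PHGDH was higher by 1.001. PHGDH and PSAT1 thus differed in opposite directions there, with a PSAT1 to PHGDH ratio in FPKM of 0.28 under the lung label, against 2.98 under the brain label, 1.30 under the heart label and 0.91 under the limb label. SHMT2, MTHFD2 and TRIB3 were at 0 under both the lung and the skin label.

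Among the brain-, heart- and limb-labelled libraries few of the 10 genes were apart. None was apart between the libraries labelled brain and heart (0 of 10, beside 37.0% of genes in either direction), or between the heart- and limb-labelled libraries (0 of 10, beside 45.9%). DDIT3 alone was apart between the brain- and limb-labelled libraries (1 of 10, beside 45.7%), at 176 FPKM under the brain label and 40.55 FPKM under the limb label. All 10 members were at 10 FPKM or more in each of these 3 libraries. The shares also cover genes that reach 10 FPKM in only 1 library of a pair, so they are not a like background for the members. The highest value over the lowest in these 3 libraries was 1.25 for PSAT1, 1.32 for SLC3A2, 1.55 for PSPH, 1.64 for TRIB3, 1.98 for ATF4 and 2.29 for ASNS. It was 2.62 for PHGDH, 2.77 for both SHMT2 and MTHFD2 and 4.34 for DDIT3.

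Likeness of pattern was measured by the Euclidean distance in log2(FPKM + 1) over the 5 libraries, a description over 5 points among 4670 other named genes averaging 10 FPKM or more. The gene nearest to TRIB3 was CHAC1, a glutathione-degrading enzyme known in human and mouse cells as an ATF4 target, at a distance of 0.38. CHAC1 was listed at 0 in the skin-labelled library, against 64.7 FPKM under the brain label, 0 under the lung label, 49.1 FPKM under the heart label and 48.9 FPKM under the limb label. THAP3 and RASSF1 followed at 0.58 and 0.61.

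Nearest to ASNS were POLR1H (a subunit of RNA polymerase I) at 1.40, IFNGR2 (a chain of the interferon gamma receptor) at 1.45 and TSPAN3 (a tetraspanin) at 1.499. Nearest to PSAT1 were IFNGR2 at 1.07, APIP (methionine salvage) at 1.25 and ANXA4 (an annexin) at 1.27. Nearest to PSPH were UFM1 (a ubiquitin-like modifier) at 1.47, SNRPN at 2.09 and HSPA9 (a mitochondrial chaperone) at 2.12. All of these were below 10 FPKM or at 0 in the skin-labelled library.

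PHGDH and DDIT3 had other neighbours. Nearest to PHGDH were VPS25 (membrane sorting) at 0.65, MRPS25 (mitochondrial ribosome) at 0.69 and COPZ1 (vesicle coat) at 0.69. Nearest to DDIT3 were PUF60 (splicing) at 0.49, DAZAP2 at 0.52 and TMEM189 at 0.72. Among the 10 genes themselves the closest pair was SHMT2 and TRIB3, at 1.13. PSAT1 lay nearer to ASNS (2.11) than to PHGDH (7.54), the enzyme before it in its own pathway. PSAT1 and ASNS were both at 0 in the skin-labelled library, where PHGDH stood at 7.14 in log2(FPKM + 1). The distance from PSAT1 to PHGDH thus largely restates the skin-labelled contrast on which the members were chosen, and depends on the 1 added.

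Other genes of the pathway were taken from lists and set against the mean of the other 4 libraries, beside the 17.5% of genes lower and 27.6% higher given above. Aminoacyl-tRNA synthetases charge tRNAs, and the list held 13 of them, chosen as induced by ATF4. Of these, 6 of 13 were lower in the skin-labelled library and 0 higher, with a median difference of -1.93. Other synthetases were not counted. WARS1, for tryptophan, stood at 0.49 FPKM in the skin-labelled library, against 149 to 730 FPKM in the other 4. CARS1 (cysteine), LARS1 (leucine) and MARS1 (methionine) were listed at 0 in the skin-labelled library, against 42.0 to 77.8, 12.3 to 50.7 and 18.7 to 26.8 FPKM in the other 4. NARS1 and SARS1, which charge tRNA with asparagine and serine, were not apart, at 67.9 FPKM in the skin-labelled library against 78.4 to 202 FPKM in the others for NARS1, and at 43.2 FPKM against 83.7 to 271 FPKM for SARS1.

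Of 16 other partners and stress targets of ATF4, 5 could be counted, and 3 were lower and 1 higher in the skin-labelled library. CEBPG, a dimer partner of ATF4, was listed at 0 there, against 20.5 to 172 FPKM in the other 4. CHAC1, described above, and DDIT4, an inhibitor of mTORC1 signalling, were the others that were lower. DDIT4 was listed at 0 in the skin-labelled library, at 27.2 FPKM under the brain label, 46.8 FPKM under the lung label and 10.2 FPKM under the heart label, and at 0 under the limb label. CEBPD, a transcription factor of the same family as CEBPG, was higher, at 179 FPKM in the skin-labelled library, against 40.0 FPKM under the heart label and 0 in the other 3.

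Most amino acid transporters were low in these libraries, and 2 of 20 entries could be counted. SLC1A5, the main glutamine transporter of many dividing cells, was lower, listed at 0 in the skin-labelled library against 14.7 to 114 FPKM in the other 4. SLC38A2, also a neutral amino acid transporter, was not apart, at 29.8 FPKM in the skin-labelled library against 0.64 to 62.7 FPKM in the other 4. The median difference over the 10 entries averaging 1 FPKM or more was -2.23.

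In other amino acid synthesis and nitrogen metabolism, 2 of the 12 entries that could be counted were lower and 2 higher, with a median of -0.82 over 19 entries. PYCR1, the mitochondrial enzyme of the last step of proline synthesis, stood at 4.68 FPKM in the skin-labelled library, against 59.6 to 274 FPKM in the other 4. CTH, which makes cysteine from cystathionine, was listed at 0 in the skin-labelled library, against 14.7 to 124 FPKM in the others. CBS, the enzyme before CTH, was higher by the mean, at 20.2 FPKM in the skin-labelled library, 45.5 FPKM under the heart label and 0 in the other 3. ASS1, which makes argininosuccinate, was also higher by the mean, at 35.3 FPKM in the skin-labelled library, 12.4 FPKM under the lung label and 111 FPKM under the limb label, and 0 in the other 2.

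The other one-carbon and glycine genes were divided, with 6 lower and 4 higher of the 12 that could be counted and a median of -1.54 over 16 entries. SFXN1, a mitochondrial serine carrier, was listed at 0 in the skin-labelled library, against 17.6 to 109 FPKM in the other 4, and GART, of purine synthesis, likewise, against 12.5 to 41.0 FPKM. ALDH1L2, a mitochondrial folate enzyme, repeated the zeros of SHMT2, at 0 in the skin-labelled library, 46.9 FPKM under the brain label, 0 under the lung label, 53.7 FPKM under the heart label and 83.1 FPKM under the limb label. MTR, the cytosolic methionine synthase, was higher, at 28.5 FPKM in the skin-labelled library, 2.17 FPKM under the limb label and 0 in the other 3.

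MTHFD1, the cytosolic folate enzyme of several activities, TYMS, which makes the DNA building block dTMP, MTHFD1L, DLD, MTFMT and MTHFS are named here after their values were seen. MTHFD1 stood at 93.9 FPKM in the skin-labelled library, against 4.70 FPKM under the brain label, 53.6 FPKM under the lung label, 22.5 FPKM under the heart label and 0 under the limb label. TYMS stood at 265 FPKM in the skin-labelled library, against 9.03 FPKM under the brain label, 199 FPKM under the lung label, 0 under the heart label and 55.3 FPKM under the limb label. MTHFD1L, a mitochondrial enzyme of the pathway, was also higher by the mean, at 23.7 FPKM in the skin-labelled library, against 0 to 10.1 FPKM in the other 4. The 3 other genes that were lower were DLD, a subunit shared by the glycine cleavage system and other mitochondrial complexes, at 0.57 FPKM in the skin-labelled library against 0 to 172 FPKM in the other 4, the mitochondrial formyltransferase MTFMT, at 0 against 0 to 95.8 FPKM, and the folate enzyme MTHFS, at 0 against 0 to 60.5 FPKM. Of 12 proliferation entries, 9 were above 0 under the skin label and 11 under the lung label, against 1 to 3 in the other 3, with summed values of 1091 and 1411 FPKM against 30.4 to 76.1 FPKM. Their part in the low values of SHMT2, MTHFD2 and TRIB3 under the same labels was not tested.

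**Figure D5:**
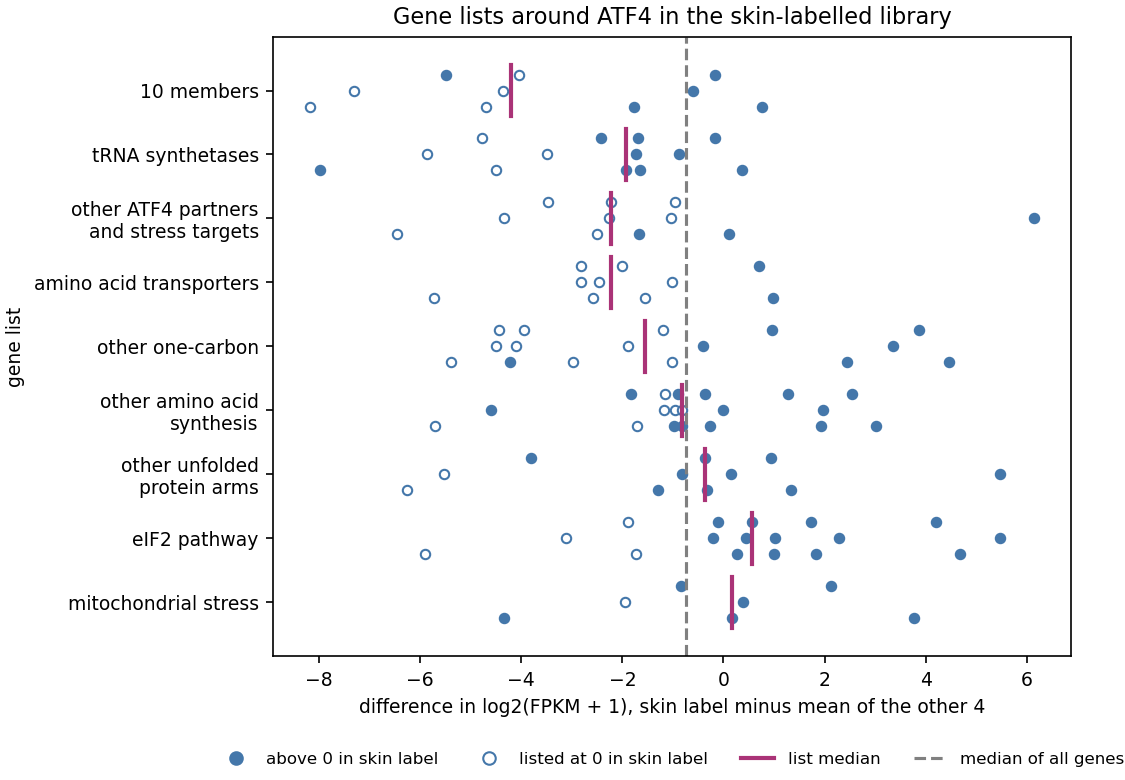
Difference in log2(FPKM + 1), skin-labelled minus the mean of the other 4 libraries (horizontal axis), for each entry averaging 1 FPKM or more in the 10 members and 8 related gene lists (rows), with open points for genes listed at 0 in the skin-labelled library, list medians as bars and the median of all genes, -0.73, as a dashed line. The member median is -4.20, the synthetase median -1.93 and the eIF2 pathway median 0.57.

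The kinases, subunits and phosphatases acting on eIF2 had 1 lower and 4 higher of 13 that could be counted, with a median of 0.57 over 17 entries. PPP1R15A (GADD34), which directs the removal of phosphate from eIF2, was counted in this list and not among the stress targets of ATF4. PPP1R15A stood at 43.2 FPKM in the skin-labelled library and was listed at 0 in the other 4. EIF2AK1, the eIF2 kinase known for sensing haem, stood at 42.5 FPKM in the skin-labelled library, against 11.0 FPKM under the lung label and 1.58 FPKM under the heart label and 0 in the other 2. EIF2B5, the catalytic subunit of the factor that recharges eIF2 with GTP, stood at 45.3 FPKM in the skin-labelled library, against 9.89 FPKM under the brain label and 0 in the other 3.

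EIF2B2, another subunit of that factor, was the gene that was lower, listed at 0 in the skin-labelled library against 36.9 to 140 FPKM in the other 4. EIF2AK4 (GCN2), the kinase that senses amino acid shortage, was not apart between the skin-labelled library and the mean of the other 4, at 2.75 FPKM under the skin label, 0 under the brain label, 15.5 FPKM under the lung label, 1.70 FPKM under the heart label and 0.26 FPKM under the limb label. It was highest under the lung label and below 3 FPKM in the other libraries.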

How the data were processed

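The authors deposited a single table covering 5 libraries (bcl2fastq, STAR and RSEM with the ARS-UCD1.2 build, per the submitters' processing notes). Tool versions and annotation were not given in the sources used. Deposited values name no unit and were taken as FPKM by elimination, since 98.7% to 99.1% of values above 0 were not whole and library totals of 1072430 to 1172798 exceed the fixed total of TPM. Depth is unknown, so no count model, error or p-value is given. Levels were compared as log2(FPKM + 1), which shrinks the ratio of weakly expressed genes, and no fold is given against 0. The members, the gene lists, the rules of size and the rule for named genes were chosen with earlier results of these data known. In each list the genes apart from the mean of the other 4 libraries are named, at most the 4 largest, with the nearest 3 genes for 6 members. Alternatives were other added values, minimums and ratios, 3 rescalings and each other library left out. Python 3.11.15, numpy 2.4.6, pandas 2.3.3 and matplotlib 3.10.9 were used. The identifiers were not matched to a genome, so no coordinates or sequences are given.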

Additional observations from a re-analysis of the deposited data

How the results depend on the processing

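No paired analysis was possible because each label has 1 library. The 9 counts and medians reported for the skin-labelled library were recomputed under the alternatives. Of the recomputed values, 97 stayed within 1.5 times the count, or on the same side of the ratio limit in use. Counts moved further in 2, and the stress factor median passed the limit in 2. The medians do not use the minimum, so its settings could not change them. The members were chosen on this contrast, so these numbers are a description only. The shares of all genes were not recomputed under the alternatives, so the changed counts have no background. The count of members lower there than in each other library was 6 without the lung-labelled library. The count apart from the heart-labelled library was 3 with a minimum of 50 FPKM, as SHMT2, MTHFD2 and TRIB3 lay under that minimum there. The stress factor median, -1.78, passed the limit when the ratio was lowered to 2, and it was -2.10 without the lung-labelled library. For single members, the PHGDH difference of -0.17 changed sign, to 0.084, without the lung-labelled library. MTHFD2 lost its call with 0.1 added, with a minimum of 50 FPKM and without the limb-labelled library. Its mean elsewhere, converted back from the log2 scale, then lay under the minimum. SHMT2 and TRIB3 lost theirs with a minimum of 50 FPKM, their converted means also lying under it. No biological cause of any change was tested. Rescaling shifted a library by at most 0.14 on the log2 scale and changed no direction. The unknown depth limits what a value of 0 shows.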

Other observations

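The unfolded protein response has arms other than the ATF4 branch, run by ATF6 and by the XBP1 splicing enzyme ERN1. Of their 11 genes that could be counted, 3 were lower and 1 higher in the skin-labelled library than in the mean of the other 4. The shares of all genes counted were 17.5% lower and 27.6% higher. The median difference was -0.37 in log2(FPKM + 1). HERPUD1, which helps clear misfolded proteins, was listed at 0 in the skin-labelled library, against 58.5 to 96.8 FPKM in the other 4. DNAJB9, a co-chaperone, was listed at 0 in the skin-labelled library, against 196 FPKM under the brain label, 0 under the lung label, 267 FPKM under the heart label and 84.9 FPKM under the limb label. ATF6 stood at 1.28 FPKM in the skin-labelled library, against 16.1 to 51.5 FPKM in the others. EDEM1, of protein disposal in the endoplasmic reticulum, was higher, at 57.7 FPKM in the skin-labelled library, against 2.05 FPKM under the heart label and 0 in the other 3. The chaperone HSPA5, known as BiP, stood at 542 FPKM in the skin-labelled library, against 2032 FPKM under the brain label, 84.3 FPKM under the lung label, 1488 FPKM under the heart label and 847 FPKM under the limb label, and so was lowest under the lung label.

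A list for stress of mitochondria, which in human cells reaches eIF2 through the protease OMA1, the messenger DELE1 and the kinase EIF2AK1, had 1 lower and 2 higher of the 6 genes high enough to be counted. These counts were near the shares of all genes counted, 17.5% lower and 27.6% higher. The mitochondrial chaperone HSPA9 stood at 7.97 FPKM in the skin-labelled library, against 145 to 271 FPKM in the other 4. LONP1, a mitochondrial protease, was higher by the mean, at 39.4 FPKM in the skin-labelled library, against 9.57 FPKM under the lung label and 6.18 FPKM under the heart label and 0 in the other 2. DELE1 was higher by the mean as well, at 14.3 FPKM in the skin-labelled library, against 81.2 FPKM under the lung label and 0.79 FPKM under the heart label and 0 in the other 2. DELE1 was therefore highest under the lung label. The median difference of the list was 0.17.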
